A study of Drosophila melanogaster with 13 samples.

Results

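RNA was sequenced from whole heads of 5-day-old adult Drosophila melanogaster, and the 13 libraries were split by the level of 1 transcript, the muscle actin Act57B. The 5 libraries above 1000 FPKM (fragments per kilobase of gene, scaled for library size) form the high set, and the other 8 of the 13 form the low set. Every fly carried the eye driver GMR-Gal4, which per the labels acts in the pupal retina and in the adult eye. In 5 libraries it was combined with UAS-Rab5 RNAi, in 4 with UAS-Rab7 RNAi, and in 4 with a wild-type chromosome as the control, with all crosses kept at 25 °C. The high set holds Rab5 RNAi 1 and 5, Rab7-labelled 1 and 4 and control 4, and values of the high set are given in this order throughout. The low set holds 3 Rab5 RNAi, 2 Rab7-labelled and 3 control libraries. No batch is recorded in the labels, and neither the number of flies in a library nor whether replicates were separate crosses is stated.

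Because the split was made on a measured value, every gene that follows it was in effect chosen by it. Differences between the sets are therefore given as a description, with no p-value. Each is the log2(FPKM + 1) difference, high minus low, with the 3 genotypes held fixed in the model, and SE is its standard error over the 13 libraries. A gene is said to separate the sets when, inside each genotype, every high-set library lies on the same side of every low-set library. Among the controls this rests on control 4 alone. Tests are reported only for the genotypes, which the split did not use.

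Act57B (FBgn0000044, 2R 20944021 to 20946431, plus strand) encodes a sarcomeric actin. Muscle contracts through sarcomeres, repeating units in which myosin thick filaments slide along actin thin filaments that are anchored at Z discs. Troponin and tropomyosin on the thin filament make that sliding depend on calcium, which SERCA pumps back into its store, while titin-like proteins such as those of sls and bt link the filaments elastically. A fly head holds, besides the brain, eyes and fat body, the muscles that move the proboscis and the antennae.

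Act57B stood at 1541, 1486, 1438, 1445 and 1574 FPKM in the high set. In the low set it ran from 667 to 709 FPKM in Rab5 RNAi, from 653 to 666 in the Rab7-labelled libraries and from 741 to 846 in controls. The lowest value above the threshold was 1438 FPKM and the highest below it 846 FPKM, and no library lay between them. The difference was 1.14 on the log2 scale in Rab5 RNAi, 1.13 in the Rab7-labelled libraries and 0.97 in controls. Each genotype thus held both levels, at 2 of 5, 2 of 4 and 1 of 4 libraries.

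**Figure D1:**
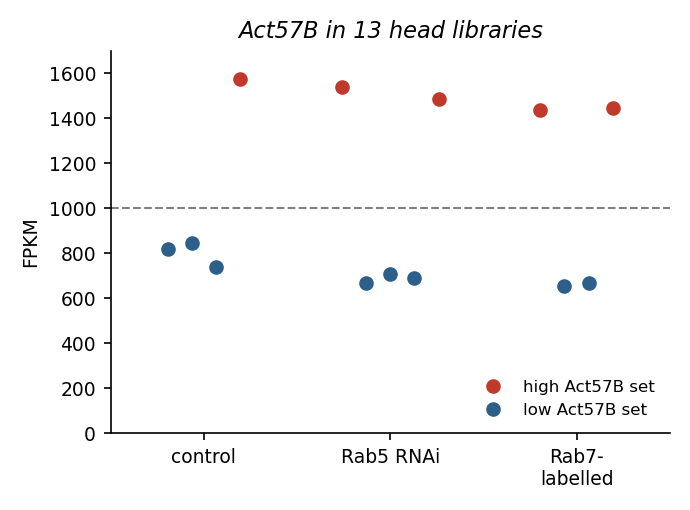
Act57B level in FPKM (vertical axis) in each of the 13 libraries, 1 point per library, by genotype, with the high set in red, the low set in blue and the 1000 FPKM threshold dashed. The 5 high-set points lie between 1438 and 1574 FPKM and the 8 low-set points between 653 and 846 FPKM.

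The libraries held 17138630 to 21410768 reads on genes, 17138630 to 19312214 in the high set and 17596962 to 21410768 in the low set, and these ranges overlapped. Genes with at least 1 read followed the split inside each genotype. They numbered 14480 and 14226 in the high set of Rab5 RNAi against 13714 to 13880, 13971 and 14718 in that of the Rab7-labelled libraries against 13695 and 13926, and 14324 in control 4 against 13997 to 14112. The part of this in the results was not tested. The mitochondrial large ribosomal RNA took 1.58% to 4.06% of reads in the high set and 2.29% to 6.72% in the low set. Rab5, the GTPase of early endosomes, stood at 51.7 to 64.5 FPKM in Rab5 RNAi and at 109.7 to 146 FPKM elsewhere. Rab7, the GTPase of late endosomes, stood at 87.3 to 109 FPKM in the libraries labelled Rab7 RNAi and at 96.1 to 105 FPKM in controls, so these 4 are called Rab7-labelled. Neither gene separated the sets. Control 2, a low-set library, lay apart for several muscle genes. Values without it are given for Act79B, for the flight-muscle list and where a muscle gene then separates. Leaving out a low-set library makes it easier for any gene to separate, so these values are a description only.

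Of 10038 genes with a mean of at least 1 FPKM, 165 separated the sets with a difference of at least 0.5 in the direction of Act57B, which is 1.64%, and 186 did so in the other direction, which is 1.85%. These are called separating genes below. With no limit on size, 566 genes (5.64%) and 653 genes (6.51%) separated the sets. The median size of the 165 was 0.70 on the log2 scale and that of the 186 was 0.74, and 24 and 43 of them differed at least 2-fold. Their median difference ran in the same order for both directions, with 0.83 and -0.87 in Rab5 RNAi, 0.71 and -0.73 in the Rab7-labelled libraries and 0.49 and -0.51 in controls. With libraries scaled to plain read totals the counts were 210 and 152. The split held 30.2% of the variance left inside genotypes over all genes. Without control 4, which leaves the controls with no high-set library, 379 genes separated the sets upward and 304 downward.

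Muscle genes lay higher in the high set, mostly those of the filaments and the Z disc. Of 52 listed muscle genes 49 were measured at 1 FPKM or more. Of these, 12 separated upward against 1.64% of all genes, none separated downward against 1.85%, and 23 separated upward at any size. The median difference was 0.38, against -0.02 over all genes, and 38 of the 49 differences were above 0. As Act57B is itself a muscle gene, these counts follow from the split and give it no support. Summed over all muscle lists, the level was 6633 to 7064 FPKM in the high set and 4272 to 5846 FPKM in the low set, with no overlap. These sums include Act57B, on which the split was made, so the gap follows in part from the split and gives it no support. In whole-head RNA, more cells of a type and more RNA per cell cannot be told apart.

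Among the 4 muscle actins, Act57B and Act87E separated and Act79B and Act88F did not. Actin genes are near-identical in sequence, so reads can be split between copies by the counting, which is not described in the sources used here. Act87E stood at 165, 163, 167, 159 and 169 FPKM in the high set and at 72.3, 92.8 and 129 FPKM (lowest, median and highest) in the low set, a difference of 0.89 (SE 0.10), with no overlap of the sets. Act88F, the actin of the indirect flight muscles, stood at 25.8, 26.2, 22.5, 26.4 and 17.4 FPKM against 5.34, 8.88 and 22.3 FPKM. Its difference of 1.35 (SE 0.25) was larger than that of Act57B, but control 2, at 22.3 FPKM, lay above control 4. Without control 2 it separated, with a difference of 1.46 (SE 0.19). Act79B, the actin of tubular muscles, ran from 109 to 207 FPKM in the high set and from 36.5 to 249 FPKM in the low set, where control 2 was again the highest. Its difference was 0.96 (SE 0.39), and it still did not separate without control 2, at 1.09 (SE 0.33). The cytoplasmic actins Act5C and Act42A did not separate, with differences of 0.12 (SE 0.14) and -0.17 (SE 0.15).

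Of 9 genes placed on the thick-filament list 6 separated by 0.5 or more. Mhc, the only muscle myosin heavy chain gene of the fly, stood at 545, 547, 522, 517 and 502 FPKM in the high set and at 282, 342 and 449 FPKM in the low set. The sets did not overlap, and the difference was 0.62 (SE 0.08). The essential and regulatory light chains Mlc1 and Mlc2 differed by 0.57 (SE 0.11) and 0.66 (SE 0.10). Mlc2 reached 756 FPKM in control 2, close to the 810.0 FPKM of control 4, while the other low-set libraries were at 602 FPKM or less. Prm, which encodes paramyosin, the core protein of the thick filament, stood at 123, 118, 116, 119 and 112 FPKM against 56.8, 67.4 and 83.3 FPKM, and its difference of 0.81 (SE 0.07) was the largest of the group. The kinase-bearing titin-like gene bt differed by 0.69 (SE 0.09). The gene tn was also placed on this list, though its product need not be part of the filament, and it differed by 0.61 (SE 0.09). Mf, which encodes myofilin, separated with a difference of 0.50 that lay just under the limit, and Strn-Mlck separated with 0.26. The flight-muscle gene fln was low, at 0.876 to 2.53 FPKM, and did not separate. Obsc, the obscurin gene of the thick filament's M line, was added after its values were seen, and it separated with a difference of 0.60 (SE 0.09).

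On the thin filament 1 of 10 regulators separated by 0.5 or more. That gene, TpnC25D, encodes a troponin C, the calcium sensor of the filament. It stood at 122, 112, 136, 141 and 138 FPKM in the high set and at 62.7, 77.6 and 121 FPKM in the low set, where 121 FPKM belongs to control 2 and the next highest value to control 1. The difference was 0.75 (SE 0.11). The tropomyosins Tm2 and Tm1 separated at 0.44 (SE 0.08) and 0.38 (SE 0.06). The troponin T gene up and the troponin I gene wupA had differences of 0.46 (SE 0.13) and 0.54 (SE 0.11) but overlapped inside a genotype, and without control 2 wupA separated at 0.57 (SE 0.10). The other troponin C genes did not follow TpnC25D. TpnC73F differed by 0.05 (SE 0.12), TpnC41C by -0.19 (SE 0.22) and TpnC47D by -0.07 (SE 0.24). TpnC4, the troponin C of stretch-activated flight muscle, stood at 4.18 to 7.88 FPKM in all 5 Rab5 RNAi libraries and at 0 to 0.859 FPKM in the other 8. Within Rab5 RNAi its high-set libraries, at 7.88 and 7.51 FPKM, lay above the low set, at 4.18 to 5.00 FPKM, a difference of 0.63, while outside Rab5 RNAi it was below 1 FPKM. The pointed-end capping gene tmod differed by -0.10 (SE 0.07).

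At the Z disc 3 of 12 genes separated by 0.5 or more. Mlp84B, a LIM-domain protein of the Z disc, stood at 147, 139, 119.7, 131 and 138 FPKM in the high set and at 56.3, 75.7 and 111 FPKM in the low set, and its difference of 0.91 (SE 0.10) was second among separating muscle genes only to Act57B. The titin-like gene sls stood at 15.7, 18.0, 16.9, 16.3 and 16.8 FPKM against 8.58, 9.95 and 12.8 FPKM, a difference of 0.68 (SE 0.07). The alpha-actinin gene Actn differed by 0.54 (SE 0.07). In none of these did the sets overlap. Zasp52 and Ilk separated at 0.42 (SE 0.06) and 0.22 (SE 0.05). Mlp60A differed by 0.55 (SE 0.13) but overlapped inside a genotype, and it separated without control 2 at 0.60 (SE 0.10). Zasp66, Zasp67, CAP, Msp300, CG30178 and parvin did not separate, with differences from -0.04 to 0.29, and Zasp66 separated without control 2 at 0.32 (SE 0.05).

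The calcium and energy genes of muscle, most of which other tissues of the head also express, moved little. None of the 9 measured separated by 0.5 or more. SERCA, the calcium pump, Pgm, an enzyme of glycogen use, and GlyP, glycogen phosphorylase, separated at 0.34 (SE 0.09), 0.47 (SE 0.08) and 0.27 (SE 0.06). RyR, CG1674, Argk, CASK, Cam and Calx did not separate, with differences from -0.15 to 0.31. Of the 5 muscle regulators measured, how, an RNA-binding protein of muscle and tendon, and kon, a transmembrane protein of muscle attachment, separated at 0.47 (SE 0.07) and 0.46 (SE 0.08). Mef2, the general muscle transcription factor, differed by 0.16 (SE 0.06) without separating, and vg and salm, which act in flight muscle, differed by -0.04 and 0.04. SclA, SclB and bap were below 1 FPKM and were not tested.

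**Figure D2:**
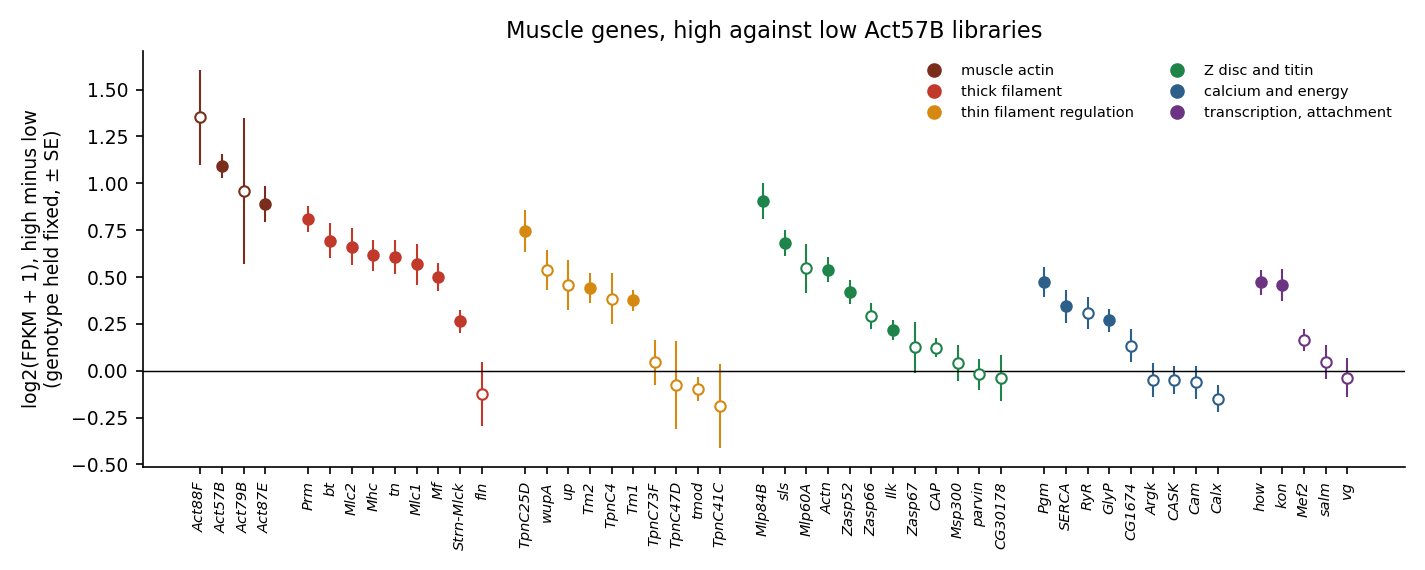
Difference in log2(FPKM + 1), high minus low set with genotype held fixed (vertical axis, bars are the SE), for the 49 measured muscle genes, grouped by role. Filled points separate the sets inside every genotype at any size and open points do not. Thick-filament and Z-disc genes such as Prm at 0.81 and Mlp84B at 0.91 lie well above 0, and Argk, Cam and Calx lie near or below it.

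In the lists that mark trunk, flight muscle, gonad and midgut, no gene separated by 0.5 or more. Of these lists 2, 6, 0 and 4 genes, in that order, reached a mean of 1 FPKM. All genes separated at 1.64% upward and 1.85% downward, at which lists of this length hold few or no calls. Of the trunk Hox genes, Antp stayed at or below 0.590 FPKM, Ubx at or below 0.351 FPKM, abd-A at or below 0.163 FPKM and Abd-B at or below 0.0496 FPKM in every library. The list summed to 8.38 to 9.77 FPKM in the high set and 7.89 to 9.85 FPKM in the low set, mostly from the other 2 genes of the list, Scr and tsh. Of 6 flight-muscle markers 1 separated upward at any size, against 5.64% of all genes, and none by 0.5 or more. Without control 2, 2 of the 6 separated upward by 0.5 or more, against 184 of all 10038 genes. The 6 summed to 281 to 388 FPKM against 145 to 426 FPKM, mostly from Act79B and Mf. Act79B is named above as the actin of tubular muscles, so the sum does not mark flight muscle alone. Gonad markers summed to 2.51 to 4.93 FPKM in the high set and 1.47 to 3.41 FPKM in the low set, and none of 10 reached a mean of 1 FPKM. Midgut proteases and amylases summed to 77.3 to 119.4 FPKM in the high set and 31.3 to 234 FPKM in the low set, and 13 of the 17 listed were below a mean of 1 FPKM.

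Markers of sex were as follows. The male dosage-compensation RNAs lncRNA:roX1 and lncRNA:roX2 stood at 203 to 298 FPKM and 52.7 to 96.5 FPKM over the 13 libraries. The yolk protein genes Yp1 and Yp2 stayed at or below 0.735 and 1.21 FPKM. Yp3 stood at 5.36, 5.29, 12.5, 15.4 and 49.1 FPKM in the high set and at 19.3, 37.7 and 52.1 FPKM in the low set. It was lower in the high set of Rab5 RNAi and of the Rab7-labelled libraries but not in controls.

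In marker lists of other cell types of the head the counts were near the background of 1.64% upward and 1.85% downward, at which lists of this length hold few or no calls. Separating genes numbered 0 of 18 neuronal, 0 of 12 glial and 0 of 12 hemocyte markers, and their median differences were -0.09, 0.19 and 0.14. Summed neuronal markers stood at 1338 to 1594 FPKM in the high set and 1342 to 1982 FPKM in the low set, and summed glial markers at 604 to 900 FPKM and 569 to 809 FPKM. Summed hemocyte markers stood at 516 to 799 FPKM and 241 to 763 FPKM, and summed fat-body genes at 858 to 1279.8 FPKM and 657 to 1215 FPKM. These ranges pool genotypes. Hemocyte sums, high against low, were 799 and 784 against 241 to 370 FPKM in Rab5 RNAi. They were 533 and 516 against 559 and 538 FPKM in the Rab7-labelled libraries and 687 against 657 to 763 FPKM in controls. Fat-body sums lay higher in the high set of Rab5 RNAi, at 982 and 1137.5 against 657 to 687 FPKM. They also did in the Rab7-labelled libraries, at 1279.8 and 1102 against 1080.5 and 960 FPKM, but control 4, at 858 FPKM, was the lowest control. Of 14 fat-body genes 1 separated, downward, with a list median of 0.27. Housekeeping lists held 0 of 85 cytosolic ribosomal proteins, 0 of 67 oxidative phosphorylation genes, 0 of 9 endosomal Rab genes and 0 of 9 tubulins among the separating genes. Whether shares of tissues in the dissected heads had a part in the result was not tested.

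Heat-shock genes lay lower in the high set. Of 22 measured, 5 separated downward against 1.85% of all genes, none separated upward against 1.64%, and all 22 differences were below 0, with a median of -0.46. Inside genotypes the list's median was -0.17 in Rab5 RNAi, -0.72 in the Rab7-labelled libraries and -0.46 in controls. With libraries scaled to plain read totals 20 of the 22 were below 0 and the same number, 5, separated. Chaperones of this kind help proteins fold, and several are induced by heat and other stress. Hsp83, the only cytosolic Hsp90 gene of the fly, stood at 249, 235, 289, 258 and 249.8 FPKM in the high set. In the low set it stood at 458 to 488 FPKM in controls, 683 to 765 FPKM in Rab5 RNAi and 715 to 770.3 FPKM in the Rab7-labelled libraries. The high-set level was thus alike in the 3 genotypes, while the low-set levels differed between controls and both RNAi groups. The difference was -1.36 (SE 0.10).

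The inducible Hsp70Ab and Hsp70Aa, near-identical copies whose reads may be shared, differed by -1.31 (SE 0.14) and -1.28 (SE 0.19). Hsp70Ab stood at 24.6, 21.1, 14.3, 18.8 and 7.67 FPKM in the high set and at 14.0, 49.6 and 69.2 FPKM in the low set. The sets overlapped because low-set controls, at 14.0 to 16.6 FPKM, lay below high-set Rab5 RNAi libraries. Droj2, a DnaJ-type co-chaperone, stood at 175, 159, 192, 183 and 180.4 FPKM against 289.7, 316 and 346 FPKM, with a difference of -0.83 (SE 0.05) that was nearly the same in each genotype, at -0.83, -0.85 and -0.82. Hsp60A, the mitochondrial chaperonin, was the fifth.

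Partners of Hsp90 followed Hsp83. This list of 15, which includes Hsp83 and Droj2, was drawn up after the values were seen. Of its genes 10 separated downward, against 1.85% of all genes, and 8 did so with plain read totals. As its members were picked with these values known, the count is a description. All 15 differences were below 0. Stip1, which hands clients from Hsp70 to Hsp90, stood at 55.3, 51.6, 61.7, 52.4 and 56.6 FPKM in the high set and at 81.6, 102 and 114 FPKM in the low set, a difference of -0.85 (SE 0.08). CG1416, which resembles the Hsp90 activator Aha1, differed by -0.86 (SE 0.05), and CHORD and Sgt1, co-chaperones that bind each other, by -0.71 (SE 0.10) and -0.57 (SE 0.07). The kinase co-chaperone gene Cdc37 differed by -0.64 (SE 0.09), Hsc70Cb of the Hsp110 class by -0.70 (SE 0.06), the immunophilin gene Fkbp59 by -0.54 (SE 0.06) and nudC by -0.51 (SE 0.07). The myosin chaperone gene unc-45 separated at -0.41 (SE 0.07), opposite in sign to Mhc, and spag at -0.33 (SE 0.07). The genes p23, PpD3 and STUB1 did not separate.

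Phototransduction genes, by which the eye turns light into an electrical signal, mostly lay lower in the high set, and a minority of them separated. Of 32 measured, 28 had a difference below 0, 7 separated downward against 1.85% of all genes and none separated upward against 1.64%, with a median of -0.35. The list's median was -0.81 in Rab5 RNAi, -0.35 in the Rab7-labelled libraries and 0.13 in controls, so the direction of the list as a whole was not shared by controls. Without control 4, 15 of the 32 separated downward, with a median of -0.68, against 304 of all 10038 genes. Leaving out control 4 takes away the only high-set control, so the genotype whose list median was above 0 no longer counts. It also makes it easier for any gene to separate, so this is a description only. The summed level ran from 2364 to 36961 FPKM in the high set and from 7451 to 47842 FPKM in the low set, where the lowest values of each belong to Rab5 RNAi.

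The opsins differed from each other. Rh5, the blue opsin of a class of R8 photoreceptors, stood at 10.4, 8.35, 30.3, 36.1 and 72.4 FPKM in the high set. In the low set it stood at 54.8 to 63.0 FPKM in Rab5 RNAi, 188 to 208 FPKM in the Rab7-labelled libraries and 202 to 239.8 FPKM in controls. Its difference of -2.31 (SE 0.14) was the largest in size of all separating genes with a mean of at least 5 FPKM. Rh6, the green opsin of the other R8 class, did not separate, at 146, 129.8, 197, 263 and 248 FPKM against 170.3, 258 and 332 FPKM. The difference of Rh6 was -0.89 in Rab5 RNAi, 0.30 in the Rab7-labelled libraries and -0.23 in controls.

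The ultraviolet opsins of R7 photoreceptors showed the same contrast within a pair. Rh4 stood at 14.4, 12.8, 324, 341 and 206 FPKM in the high set and, in the low set, at 26.9 to 34.1 FPKM in Rab5 RNAi, 570.0 to 634 FPKM in the Rab7-labelled libraries and 423 to 467 FPKM in controls. Its difference was similar in each genotype, at -1.06 in Rab5 RNAi, -0.85 in the Rab7-labelled libraries and -1.10 in controls. Rh3 differed by -0.28 (SE 0.12) and did not separate. The opsin of the outer photoreceptors, ninaE, stood at 849, 686, 10202, 11057 and 21894 FPKM against 3292, 24778 and 30165 FPKM. It differed by -2.37 in Rab5 RNAi, -1.22 in the Rab7-labelled libraries and -0.36 in controls. Rh2, the opsin of the simple eyes on top of the head, showed the reverse order of genotypes, with -0.61, -0.91 and -2.85.

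Of the genes that act after the opsins, the arrestins Arr2 and Arr1, which switch off active rhodopsin, separated at -1.13 (SE 0.17) and -1.05 (SE 0.21). Arr2 stood at 631, 492, 3999, 3902 and 6632 FPKM against 1710.0, 7901 and 9077 FPKM. The non-visual arrestin krz differed by -0.27 (SE 0.08) and did not separate. The gene inaF-B, which the light-gated TRP channel needs, separated at -1.52 (SE 0.19), and was below 1 FPKM in both high-set Rab5 RNAi libraries. Among 13 genes of photoreceptor structure sdt alone separated by 0.5 or more, at -0.66 (SE 0.06). It encodes a scaffold of the Crumbs complex at the photoreceptor's apical membrane. Of 18 eye pigment genes, se, of the red drosopterin pathway, separated at -0.77 (SE 0.12), and st, a subunit of an ommochrome precursor transporter, at 0.63 (SE 0.15) in the other direction. Over all genes 1.85% separated downward and 1.64% upward by 0.5 or more, so 1 call in lists of this length says little about the list.

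**Figure D3:**
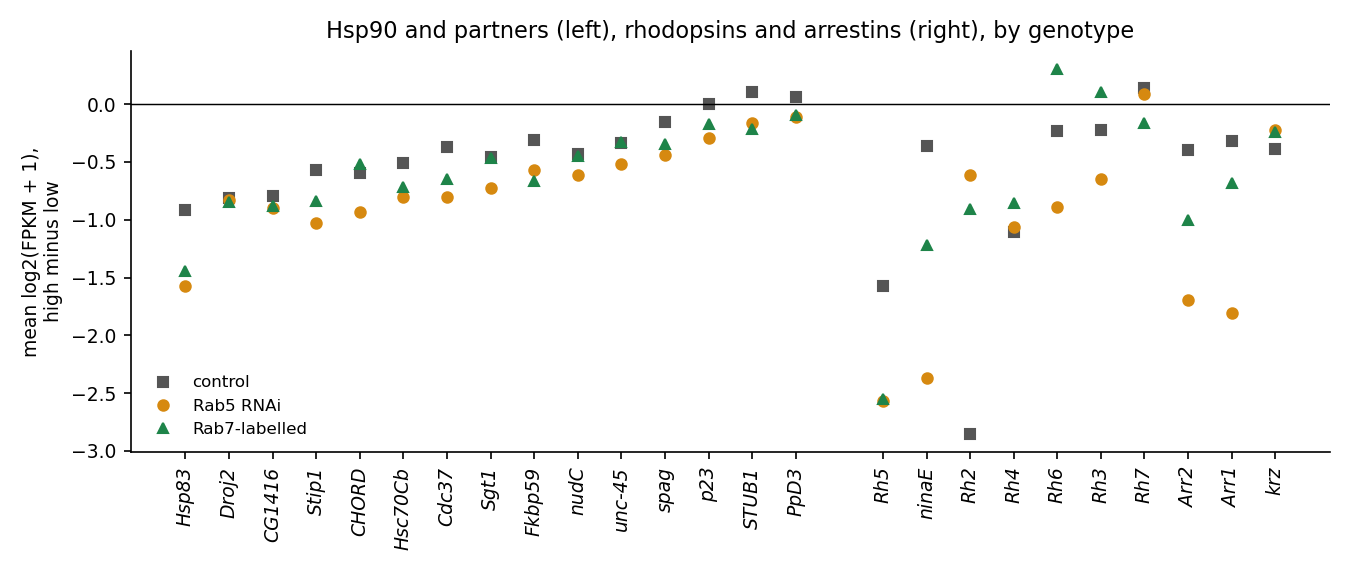
Mean log2(FPKM + 1), high minus low set (vertical axis), computed inside each genotype, for Hsp83 and its partners on the left and for opsins and arrestins on the right. The 3 genotypes lie close together for Droj2, at -0.83, -0.85 and -0.82, and far apart for ninaE, at -2.37 in Rab5 RNAi, -1.22 in the Rab7-labelled libraries and -0.36 in controls.

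Insulin-like peptide genes, another list drawn up after the values were seen, showed both directions. Ilp2 and Ilp5, made by the insulin-producing cells of the brain, separated downward. Ilp2 stood at 60.5, 47.0, 75.2, 66.1 and 48.5 FPKM in the high set and at 101, 118 and 127 FPKM in the low set, a difference of -0.98 (SE 0.11). Ilp5 differed by -1.31 (SE 0.16), and the sets did not overlap for either gene. Ilp3, made by the same cells, differed by -0.22 (SE 0.08) and did not separate. Ilp6, a peptide of the fat body, separated upward at 0.70 (SE 0.11), with 10.9, 13.6, 11.2, 10.9 and 10.1 FPKM against 5.06, 6.67 and 9.34 FPKM.

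Of 24 measured neuropeptide genes, Capa and SIFa separated downward by 0.5 or more, at -0.75 (SE 0.10) and -0.53 (SE 0.09). This list too was drawn up after the values were seen, and 1.85% of all genes separated downward in this way. With plain read totals 1 of the 24 did so. Pdf, the peptide of the clock neurons, separated at -0.45 (SE 0.07), with 91.1, 94.5, 90.2, 83.8 and 97.3 FPKM against 111, 126 and 150.1 FPKM. In all 7 of the 24 separated downward at any size, against 6.51% of all genes, and none upward, against 5.64%. Of the 24 differences 22 were below 0.

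In several other lists 1 member separated by 0.5 or more. All genes did so at 1.64% upward and 1.85% downward, and 1 call in lists of this length says little about the list. Ldh, lactate dehydrogenase, was the 1 of 15 glycolytic genes to separate by 0.5 or more, at 1.10 (SE 0.20). It stood at 74.5, 63.7, 146, 153 and 213 FPKM in the high set and at 39.0 to 53.7 FPKM in Rab5 RNAi, 68.0 to 77.0 FPKM in the Rab7-labelled libraries and 43.0 to 54.2 FPKM in controls of the low set. Control 4 thus lay furthest from its own genotype. AttD, of the attacin family of antimicrobial peptides, separated at 0.99 (SE 0.18), the 1 of 24 genes of its list to do so. The larval serum protein gene Lsp2, of the fat body, separated at -1.18 (SE 0.25) at levels of 0.371 to 5.97 FPKM. The mitochondrial small ribosomal RNA mt:srRNA separated at 1.32 (SE 0.56), with Rab5 RNAi 2 at 4.66 FPKM and the other low-set libraries at 37.4 to 109 FPKM.

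**Figure D4:**
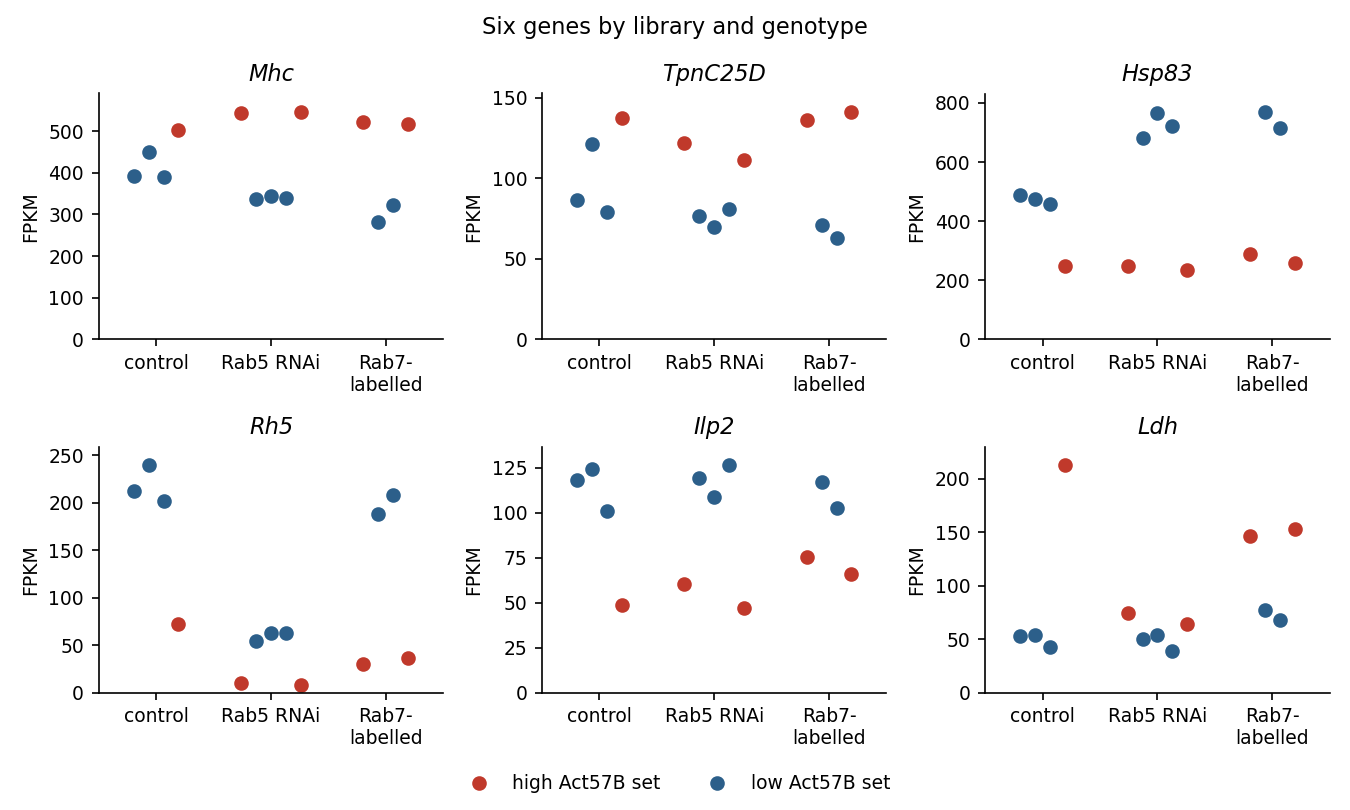
FPKM (vertical axes, starting at 0) of Mhc, TpnC25D, Hsp83, Rh5, Ilp2 and Ldh in each library, 1 point per library, by genotype, with the high set in red and the low set in blue. Hsp83 is near 250 FPKM in every red point, at 235 to 289, while its blue points lie at 458 to 488 FPKM in controls and at 683 to 770.3 FPKM in both RNAi groups.

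Among separating genes with a mean of at least 5 FPKM, none of the 10 with the largest difference in either direction was a listed muscle gene. Upward 7 of the 10 were CG12116, CG8665, mt:srRNA, lncRNA:CR43144, GstD2, CG9377 and MFS3, with differences from 1.35 to 1.19. The other 3 were gene models with no annotation, a class in which 13 of 171 genes (7.60%) separated upward, against 127 of 9255 protein-coding genes (1.37%). GstD2 belongs to a family of glutathione S-transferases with close copies, and stood at 51.5, 38.3, 13.6, 18.1 and 10.3 FPKM against 7.26, 8.79 and 9.96 FPKM. MFS3, a transporter of the major facilitator family, had the smallest SE of the 10, at 1.19 (SE 0.09).

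Downward the largest were Rh5, sad, inaF-B, CG13840, Cpr72Ec, CR46155, SmydA-8, ninaE, CG43191 and CG2681, from -2.31 to -1.43. The cytochrome P450 gene sad, of ecdysone synthesis, stood at 19.4, 15.3, 67.2, 77.2 and 117 FPKM in the high set and at 189, 206 and 270.1 FPKM in the low set, a difference of -2.19 (SE 0.33). The sets did not overlap, and the differences were -3.43 in Rab5 RNAi, -1.76 in the Rab7-labelled libraries and -0.77 in controls. CG43191 was at 3.33 to 4.08 FPKM in all 5 high-set libraries and 10.2 to 14.3 FPKM in all 8 of the low set.

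The genotype comparisons ask what changed in heads with RNAi against Rab5 or Rab7. The high set makes up 2 of 5, 2 of 4 and 1 of 4 libraries of the groups, and both comparisons were fitted with the split as a term. Genes were called by limma at a Benjamini-Hochberg adjusted p below 0.05 over all 10038 genes. These p-values measure the spread between these libraries, which may be technical, and can be too small, since the split was chosen from the same data. Both comparisons share the 4 controls.

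With the split as a term, 1103 genes (11.0%) were higher and 1214 (12.1%) lower in Rab5 RNAi than in controls, 2317 (23.1%) in all. With plain read totals 1790 were higher and 855 lower. Without the term 1761 genes (17.5%) were called, 829 (8.26%) higher and 932 (9.28%) lower, and 1758 of these were called in both fits with the same sign. For the Rab7-labelled libraries the term raised the count from 322 (3.21%), with 165 (1.64%) higher and 157 (1.56%) lower, to 629 (6.27%), of which 314 (3.13%) were higher and 315 (3.14%) lower, and all 322 were among the 629. The 629 fell to between 323 and 390 when Rab7-labelled 1 or 2 or control 1, 2 or 3 was left out, with 346, 390, 355, 386 and 323 genes. Separating genes made up 78 of the 559 calls that Rab5 RNAi gained with the term and 70 of the 1758 calls made in both fits. They made up 50 of the 307 calls gained and 9 of the 322 shared calls in the Rab7-labelled libraries, and 351 of all 10038 genes. By definition the spread of separating genes inside genotypes lies along the split, and the term takes that spread out. Their number among the calls gained thus follows from the definition and is a description only.

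**Figure D5:**
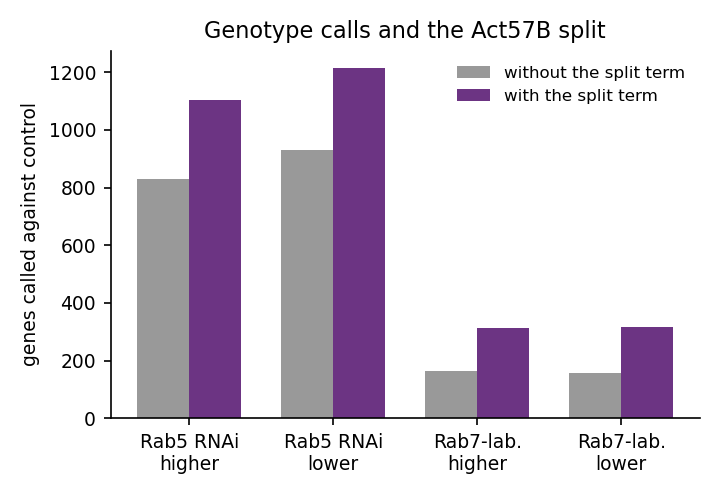
Number of genes called against control by limma (vertical axis, starting at 0) in each direction, without the split as a term (grey) and with it (purple). Rab5 RNAi calls go from 829 to 1103 higher and from 932 to 1214 lower, and those of the Rab7-labelled libraries from 165 to 314 and from 157 to 315.

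Heat-shock calls changed when the term was added. With the term, 15 of 22 heat-shock genes rose and 1 fell in Rab5 RNAi, against 11.0% and 12.1% of all genes, with a median of 0.73. Without it 10 rose and 1 fell. In the Rab7-labelled libraries 10 rose and none fell with the term, against 3.13% and 3.14%, with a median of 0.53, and 1 rose without it. Among the 8 low-set libraries alone, 15 rose in Rab5 RNAi and 12 in the Rab7-labelled libraries, and none fell. Over all 10038 genes that fit called 1269 higher and 1294 lower in Rab5 RNAi, and 252 and 183 in the Rab7-labelled libraries.

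Hsp83 shows what the term did. With it, Hsp83 rose by 0.41 (SE 0.11, limma adjusted p = 0.0181) in Rab5 RNAi and by 0.50 (SE 0.12, limma adjusted p = 0.0275) in the Rab7-labelled libraries. Without it the limma adjusted p was 0.797 and 0.918. In the low set alone every RNAi library lay above every control, with differences of 0.61 (limma adjusted p = 0.00133) and 0.65 (limma adjusted p = 0.0100), while in the high set control 4 lay inside the range of the RNAi libraries. Hsp70Ab rose by 1.67 (SE 0.16, limma adjusted p = 2.1e-05) and 1.62 (SE 0.18, limma adjusted p = 0.000225), and Hsp68, another inducible chaperone of that family, by 1.19 (SE 0.15, limma adjusted p = 0.00016) and 0.88 (SE 0.16, limma adjusted p = 0.00855). Hsc70-3, the chaperone of the endoplasmic reticulum, was the 1 that fell in Rab5 RNAi, by 0.45 (SE 0.12, limma adjusted p = 0.016).

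Muscle genes changed between genotypes about as often as other genes. With the term, 2 of 49 rose and 9 fell in Rab5 RNAi, against 11.0% and 12.1% of all genes, and none rose and 2 fell in the Rab7-labelled libraries, against 3.13% and 3.14%. Without it the counts were 2 and 4, and 0. The 2 that rose in Rab5 RNAi were TpnC4, by 2.28 (SE 0.16, limma adjusted p = 1.4e-06), and CG30178, by 0.44 (SE 0.14, limma adjusted p = 0.040). Zasp52, a scaffold of the Z disc, fell by 0.40 (SE 0.08, limma adjusted p = 0.0022) in Rab5 RNAi and by 0.35 (SE 0.08, limma adjusted p = 0.022) in the Rab7-labelled libraries, where Mlp84B also fell, by 0.50 (SE 0.12, limma adjusted p = 0.027). The others that fell in Rab5 RNAi were sls, Zasp66, CAP, tmod, RyR, Cam, Pgm and salm. With the term no other actin and none of the 9 genes of the thick-filament list passed the test in either comparison. Obsc, added after its values were seen, was called lower in both with the term and in neither without it. Its values with the term were -0.47 in Rab5 RNAi and -0.42 in the Rab7-labelled libraries. Among the low-set libraries alone both cytoplasmic actins were called higher in Rab5 RNAi, against 1269 of all 10038 genes. In that fit 1 of 9 genes of the thick-filament list, Mf, was called lower in each comparison. Over all genes 1294 were lower in Rab5 RNAi and 183 in the Rab7-labelled libraries. No test is given for Act57B, whose values define the split.

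Phototransduction and tubulin genes gave the same counts with and without the term in Rab5 RNAi, at 26 lower and 2 higher of 32 and at 1 lower of 9. Over all genes 12.1% were lower and 11.0% higher with the term, and 9.28% and 8.26% without it. The tubulin count was thus near the share of all genes. The tubulin called was betaTub97EF, which fell by 0.75 (SE 0.12, limma adjusted p = 0.00089). In the Rab7-labelled libraries 1 of 9 tubulins was lower, against 3.14% of all genes with the term and 1.56% without. This was betaTub60D, which fell by 0.91 (SE 0.23, limma adjusted p = 0.038 with the term and 0.042 without). A count of 1 says little about the list. Among the low-set libraries alone betaTub60D had a value of -0.52 (limma adjusted p = 0.36). Hemocyte and glial markers in the Rab7-labelled libraries went from 4 to 6 of 12 and from 2 to 6 of 12 lower when the term was added, against 3.14% of all genes with it and 1.56% without. Among the low-set libraries alone 1 hemocyte and 2 glial markers were lower, against 183 of all 10038 genes. PPO1, a prophenol oxidase of crystal cells, fell by 1.89 (SE 0.21, limma adjusted p = 0.000225), and alrm, an astrocyte marker, by 0.99 (SE 0.23, limma adjusted p = 0.028). These markers' own differences between the sets did not separate.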

How the data were processed

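Per the labels' protocols, libraries were made with a SMARTer kit from total RNA of adult heads. The authors deposited 1 table of FPKM per gene and sample, and these FPKM values were used as deposited. CASAVA is named in the submitters' processing notes without a version. For the aligner, the counting, its strand setting, the build and the gene models, the sources used here give nothing. Coordinates are those of the deposited table, and 17502 of 17626 identifiers shared with the BDGP6.54 annotation have the same start and end there. All 182918 values above 0 were whole multiples, within 0.05, of what 1 read is worth, which gave 17138630 to 21410768 recovered reads per library. The values carry a scaling close to the median of ratios over genes. The deposited table's own 13 sample columns were not used.

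Libraries were split at 1000 FPKM of Act57B. Genes with a mean of at least 1 FPKM (10038) were fitted on log2(FPKM + 1), which understates changes of low genes, with limma 3.58.1 in R 4.3.3 (trend and robust), with genotype and split as terms. Genotype contrasts were adjusted by Benjamini-Hochberg over all genes at 0.05. The procedure was tested on simulated data. Alternatives were another pseudocount, no filter, plain read totals, limma-voom on recovered reads, control 1 in the other set, no size limit, a replicate block, no split term, the low set alone and each library left out.

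Members and lists were chosen with earlier results of these data known. The genes named are Act57B, Rab5, Rab7, all measured muscle-list members, up to 4 separating members of each other list (or 2 of its most abundant genes), and the 10 separating genes with the largest difference in each direction at a mean of at least 5 FPKM. Members of the genotype lists named for their tests, the markers of absent tissues, and the rhodopsin, arrestin, Hsp90-partner, insulin-like peptide, neuropeptide and Obsc lists were chosen after their values were seen.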

Additional observations from a re-analysis of the deposited data

Results flagged for a closer look

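Of 226 sets of values examined, 12 had a library separated from the others of its set by a wide gap, where chance alone gives about 1 in 20, and the sets mix genotypes. Control 2 was the highest low-set library for Act79B at 248.5 FPKM, Act88F at 22.3 FPKM, Mlc2 at 756 FPKM and TpnC25D at 121 FPKM. Control 4 stood apart within the high set for Yp3 at 49.1 FPKM, Act42A at 34.6 FPKM and CG8665 at 5.44 FPKM. Rab5 RNAi 2 was the highest low-set library for TpnC73F at 15.8 FPKM and CR46155 at 41.1 FPKM, and Rab7-labelled 3 for sad at 270.1 FPKM. In the high set Rab5 RNAi 5 was lowest for up at 267 FPKM and Rab5 RNAi 1 for TpnC41C at 5.64 FPKM.

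For some genes every high-set library lay above the low set in one genotype and below it in another, and these differences between genotypes were not tested. The amylase genes Amy-p and Amy-d, near-identical copies whose reads may be shared, were higher in the high set of Rab5 RNAi, by 2.47 and 2.54 on the log2 scale, and lower in the Rab7-labelled libraries, by values of -1.97 and -0.85, and in controls, by -1.25 and -1.18. Act5C had -0.41 in Rab5 RNAi, 0.50 in the Rab7-labelled libraries and 0.46 in controls, and Act42A had -0.62 in Rab5 RNAi and 0.29 in controls. Rh3 had -0.65 in Rab5 RNAi, 0.11 in the Rab7-labelled libraries and -0.22 in controls. TpnC47D had -0.64 in Rab5 RNAi and 0.66 in controls, and TpnC41C had 0.24 in the Rab7-labelled libraries and -0.59 in controls. Values of parvin were -0.27, 0.21 and 0.075 in Rab5 RNAi, the Rab7-labelled libraries and controls, and those of Calx were -0.26, -0.23 and 0.13. Argk had -0.27 in Rab5 RNAi and 0.16 in the Rab7-labelled libraries.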

How the results depend on the processing

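With control 1, the low-set control with the second highest Act57B, moved to the high set, 100 genes separated upward and 36 downward, 92 of the 351 were shared, and the variance share was 27.2%. That share was 25.4% with a pseudocount of 0.1. With no size limit 566 and 653 genes separated. Leaving out each library in turn gave 168 to 379 genes upward, 182 to 304 downward, both highest without control 4, and a share of 28.5% to 35.1%. Genotype calls then ran from 1684 to 2390 for Rab5 RNAi and from 323 to 702 for the Rab7-labelled libraries, which had 322 with no split term, and the cause was not tested. The edgeR fit listed as an alternative was not run, since the values used here are FPKM; limma-voom on recovered reads, chosen after seeing the data, gave 241 and 206 separating genes and 2333 and 692 genotype calls. Of the named genes 161 were followed under 19 settings, in which none changed sign as a called value and 37 values moved beyond the replicate spread. The labels do not say whether same-numbered libraries share more than a number. Over 12 such pairs the deviations from genotype means correlated at -0.16 to 0.30, 7 of 12 over 0.1. Of 12 libraries 4 correlated best with their own number. These deviations still hold the Act57B split, and the highest value was of Rab7-labelled 4 with control 4, both in the high set. They cannot decide whether the numbers mark pairs. With the replicate block 151 and 162 genes separated and 2245 and 460 were called between genotypes.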
